A study of Mus musculus with 2 samples.

Results

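The genes described here run the early secretory pathway: import of new proteins into the endoplasmic reticulum (ER), packaging into COPII vesicles that leave it, and return in COPI vesicles. A list of 49 such genes was taken, and 44 of them had at least 1 Affymetrix probe set whose platform annotation gives exactly 1 gene symbol. The other members could not be used: Srp54a, Sec61g and Tmed2 are named only in probe sets that list several symbols, and Srp72 and Sec24a were not matched. All 44 were measured, out of 6807 measured genes in the series. The samples were 2 cultures of NIH 3T3, an established mouse embryonic fibroblast line, with 1 array each. One culture received the pHA-CMV-ATCE1-C-del plasmid, which encodes ATCE1 without its C-terminus, described as the nuclear form, and the other received pHA-CMV, the vector with no insert. Both were transfected with Lipofectamine, and RNA was extracted 48 hours later. ATCE1 is a CREB family bZIP transcription factor whose gene is now called Creb3l4, and the question was which transcripts differ in abundance when it is expressed from the plasmid. Every value below compares these 2 arrays only, and none of them shows how strongly the insert was expressed. Without replicates, no error between cultures can be given and nothing could be tested.

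Proteins bound for the ER are recognised by the signal recognition particle (SRP), handed to its receptor and threaded through the Sec61 channel, after which signal peptidase removes the signal peptide. COPII vesicles, built from Sar1, Sec23, Sec24, Sec13 and Sec31, carry finished cargo towards the Golgi. COPI vesicles, built by Arf GTPases and coatomer, bring escaped ER proteins and recycling receptors back. Fibroblasts make much collagen and other matrix protein and use this route heavily. Several membrane-bound relatives of ATCE1 in the CREB3 family are known to act on secretory pathway genes in secretory cells.

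The promoters of the members were read first, because the plasmid encodes a transcription factor of the CREB family. RefSeq promoter windows of the assembly GRCm38.p6, each covering 250 bases before to 50 bases after a start site, were found for 40 of the 49 members. The shortened cAMP response element TGACGTG, searched on both strands, was in the windows of 7 of these 40 genes (17.5%). Of the 36 measured members among them, 7 held it (19.4%), against 3.77% of 5627 measured genes with a window. Over all 27025 genes with a window, measured or not, the share was 2.22%. The 7 genes are shown with 17 bases of flank on each side, the strand being that of the gene and capitals marking the match, which reads CACGTCA where it lies on the opposite strand.

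Sec24d (chr3:123267453-123267493, + strand): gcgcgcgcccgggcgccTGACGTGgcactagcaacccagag
Copb1 (chr7:114254684-114254724, - strand): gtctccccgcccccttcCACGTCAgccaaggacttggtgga
Srpr (chr9:35211173-35211213, + strand): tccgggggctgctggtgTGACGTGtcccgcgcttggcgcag
Copb2 (chr9:98563708-98563748, + strand): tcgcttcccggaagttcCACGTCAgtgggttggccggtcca
Arf1 (chr11:59228223-59228263, - strand): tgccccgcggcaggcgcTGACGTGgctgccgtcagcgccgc
Sec23a (chr12:59011988-59012028, - strand): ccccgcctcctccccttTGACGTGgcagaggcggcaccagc
Kdelr3 (chr15:79516362-79516402, + strand): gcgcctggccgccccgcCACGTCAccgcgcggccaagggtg

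These matches lay close to the annotated start sites. The first matched base was 29 bases before the start in Kdelr3, 27 in Copb1, 26 in Sec24d, 13 in Srpr and 6 in Copb2. In Sec23a it was 6 bases after the start base. The Arf1 match lay 21 bases after the start base of one annotated start site and 84 bases before that of another. The genes belong to 4 of the 5 role groups used below, the translocon group holding none, and none of the 7 matches overlapped a match to the other short motifs searched. The full element TGACGTCA was in the windows of Cope and Gosr2, 2 of 40 members (5%) against 3.84% of measured genes. The letters CCACGTG were in those of Arf5, Tmed10 and Ssr1, 3 of 40 (7.5%) against 7.02%. Of ER stress elements, only the longer ERSE and ERSE-II were searched. They matched 0 of 40 members, and 0.178% and 0.124% of measured genes. A match is a run of letters and not a shown binding site, and no binding was measured. Nor does a match to TGACGTG tell which factor could bind there, and other ER stress elements that share these letters were not looked for. On the strand that reads TGACGTG, the match is followed by G in every printed window except that of Srpr. How often other genes hold that longer run was not counted, so the matches cannot be assigned to the cAMP response element rather than to such elements.

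**Figure D1:**
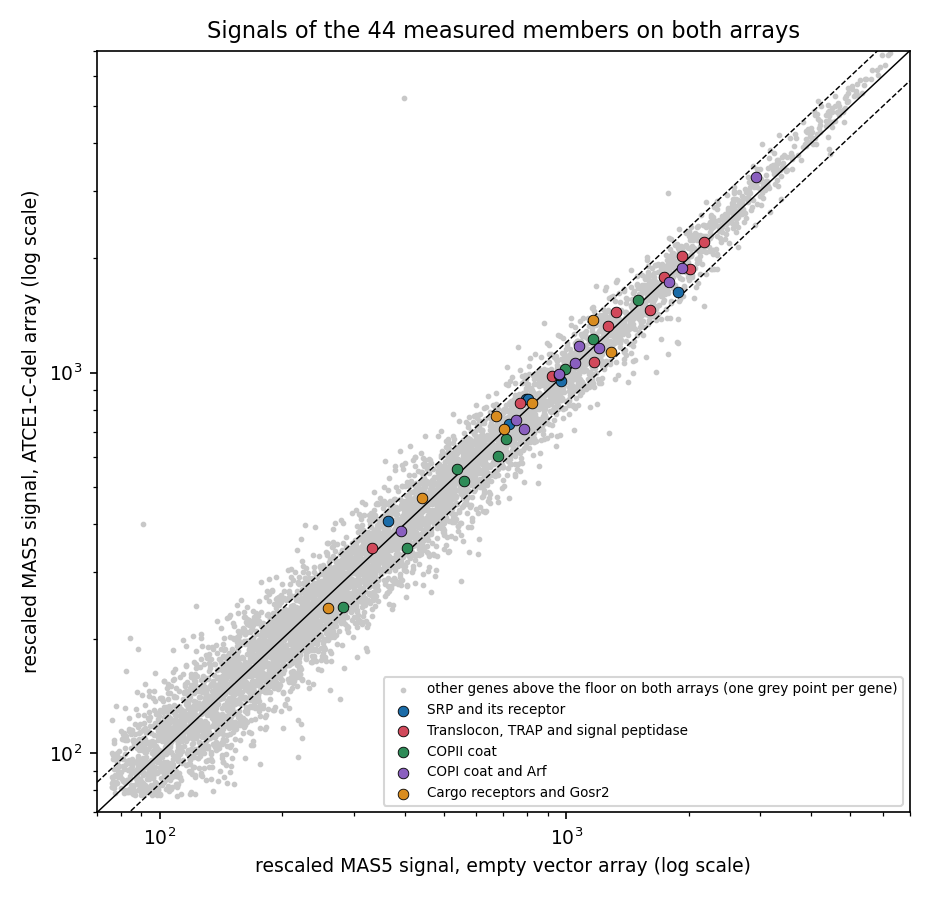
Rescaled MAS5 signals (arbitrary units, log axes) of genes above the floor on both arrays, 1 point per gene, with the 44 members coloured by role. The solid line marks equal signals and the dashed lines 1.2-fold; all 44 members lie between the dashed lines.

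No member differed by as much as 1.2-fold between the cultures. MAS5 signals, in linear arbitrary units, were compared as a log2 ratio, with ATCE1-C-del as numerator, empty vector as denominator and 0 meaning equal signals. Signals under the array's median (77.3 and 76.0 after rescaling) were raised to it as a floor, and a gene was read from its brightest probe set. All 44 members lay above the floor on both arrays, with signals from 241 to 3274. At 1.2-fold, 0 of 44 were higher and 0 of 44 were lower, where 9.21% of all measured genes were higher and 12.7% lower. Genes at or above the 75th percentile on both arrays, which include 42 of the 44 members, vary less: the higher share was 5.4% of these 3386 genes and the lower share 8.89%. The member ratios had an SD over genes of 0.12, against 0.20 for these brighter genes and 0.23 for all measured genes.

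Of the 44 members, 27 had a ratio above 0 and 17 below, with a median log2 ratio of 0.02. Across all measured genes 48.0% lay above 0 and the median was -0.0099. At 1.1-fold, 4 members were higher (Kdelr2, Lman1, Srprb and Arf1), against 22.5% of all measured genes and 18.3% of the brighter ones. On the lower side there were 6 (Sec16a, Sec24b, Srp14, Kdelr1, Sec23a and Copz1), against 27.7% and 23.2%. The values closest to 1.2-fold were 0.24 for Kdelr2 and -0.22 for Sec16a and Sec24b. All directions are relative to the bulk of genes on each array. When the arrays were scaled to the hybridisation controls, RNA added before hybridisation, the median over all measured genes shifted to 0.24 and all 44 members had positive ratios. Under 4 other scalings (signals as deposited, array medians, quantile normalization and lowess) 37 of 44 members kept their sign throughout. The 7 that did not were Srp68, Ssr3, Copb1, Cope, Arf5, Tmed10 and Gosr2, whose ratios were at most 0.032 in size. Arf5 turned only under quantile normalization. The other 6 all turned under array medians, where 21 members lay above 0 and 23 below. The member median was then -0.0045 and that of all measured genes -0.035.

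**Figure D2:**
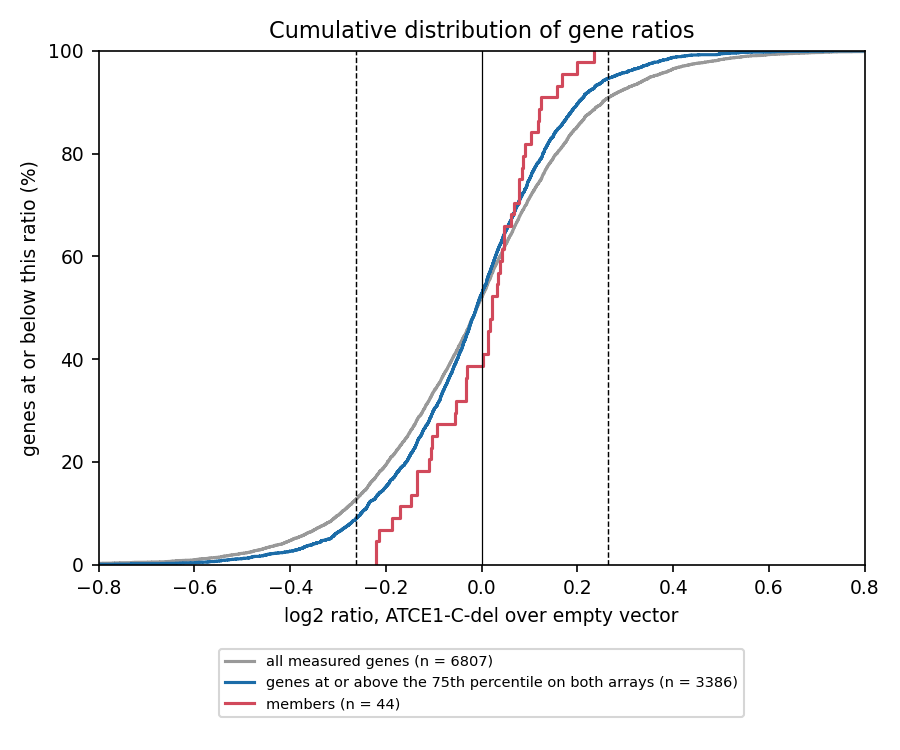
Cumulative share of genes (%, vertical axis) at or below each log2 ratio (ATCE1-C-del over empty vector, horizontal axis), for all 6807 measured genes, the 3386 brighter genes and the 44 members. Dashed lines mark 1.2-fold; the member curve starts at -0.22 and ends at 0.24, inside both lines.

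Probe sets of the same member often pointed in different directions. The 44 members had 86 probe sets, of which 76 were measured and 10 lay under the floor on both arrays, the highest of their signals being 67.4. Of 22 members with 2 or more measured probe sets, 7 were higher on all of them, 3 were lower on all of them and 12 had probe sets on both sides of 0. Across 2451 genes of the series with such sets, 49.3% had probe sets on both sides. The SD of 1 probe set's log2 ratio around its gene's mean was 0.15 for members and 0.21 for all these genes. For comparison, the largest member ratio on a brightest probe set was 0.24. Counted singly, 1 of the 76 probe sets passed 1.2-fold upwards and 2 passed it downwards, against 10.7% and 13% of 10746 measured probe sets with 1 symbol.

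**Figure D3:**
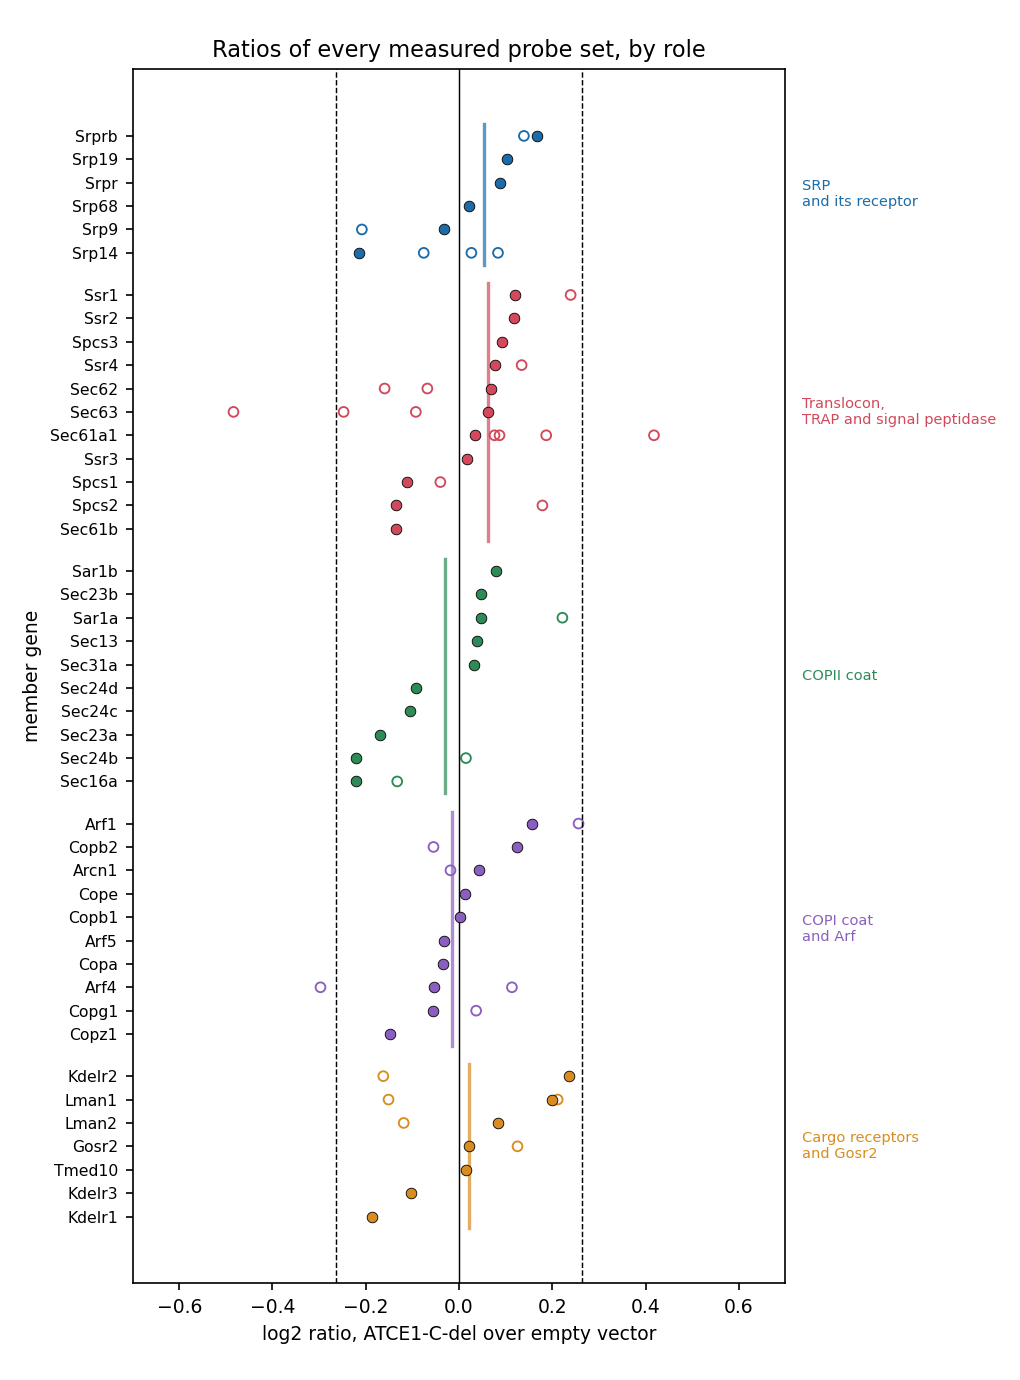
Log2 ratio (ATCE1-C-del over empty vector, horizontal axis) for each member (rows), grouped by role. Filled points are the brightest probe set of the gene, open points its other measured probe sets, coloured bars the group medians and dashed lines 1.2-fold. The open points of Sec61a1 (0.42), Sec63 (-0.48) and Arf4 (-0.30) lie outside the dashed lines.

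The SRP and its receptor had 6 measured genes of 8, with 4 above 0, 2 below and a median log2 ratio of 0.05. Srp9 and Srp14 form the dimer that slows translation while the ribosome docks. The brightest probe set of Srp14 read 1629 against 1885 (here and below, ATCE1-C-del first and empty vector after it), the lowest ratio of the group at -0.22. Its other 3 probe sets read 1305 against 1372 (-0.08), 1325 against 1297 (0.03) and 1278 against 1202 (0.08). The 4 ratios of Srp14 thus spread over 0.30 and crossed 0. Srp9 read 951 against 969 (-0.03), and its second probe set 331 against 382 (-0.21), so that both were lower. Srp19, which helps to assemble the particle on its RNA, read 854 against 793 (0.10). Srp68, which pairs with Srp72 on the particle, was near level at 732 against 719.7 (0.02).

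Both subunits of the SRP receptor were higher with ATCE1-C-del on all 3 of their measured probe sets. The names of all 3 end in _a_at, which marks probe sets able to match several transcripts. Srprb, the membrane-anchored GTPase subunit, read 409 against 363 and was 1.12-fold higher, the highest ratio of the group at 0.17. Its second probe set read 316 against 286 (0.14), so that its probe sets lay 0.029 apart, the closest of the 22 members with several. Srpr, the subunit that meets the SRP and one of the genes with TGACGTG in its promoter window, read 854 against 802 (0.09). A further probe set of each gene lay under the floor, at 30.5 against 42.8 for Srprb and 11.4 against 17.4 for Srpr.

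The translocon, TRAP complex and signal peptidase group had 11 measured genes of 12, with 8 above 0, 3 below and a median log2 ratio of 0.06, the highest of the 5 groups. None reached 1.1-fold in either direction, where 22.5% of all measured genes were higher and 27.7% lower. Sec61a1, the channel itself, read 1787 against 1741 on its brightest probe set (0.03). Its 4 other measured probe sets were also higher: 1316 against 1236 (0.09), 1269 against 1200.4 (0.08), 769 against 673.5 (0.19) and 416 against 310.2 (0.42, or 1.34-fold). All 5 thus agreed in direction, and the dimmest of them gave the largest ratio of any member probe set on the higher side. Sec61b, the small tail-anchored subunit of the channel, lay on the other side at 1462 against 1603 (-0.14), on its only probe set.

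Sec62 and Sec63, which assist import through the channel, were higher on their brightest probe sets and lower on every other measured one. In both genes the name of the brightest probe set marks it as able to match several transcripts. Sec62 read 1329 against 1264 (0.07) on the brightest, then 925 against 1029.9 (-0.16) and 81.6 against 85.3 (-0.07). Sec63 read 347 against 332 (0.06) on the brightest. Its remaining probe sets read 252 against 299 (-0.25), 224 against 238 (-0.09) and 153 against 214 (-0.48, or 1.40-fold lower). The 4 ratios of Sec63 covered 0.55, the widest range of any member, and their mean was -0.19. The direction of Sec63 therefore depends on the probe set that is read.

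All 4 subunits of TRAP, the translocon-associated complex that helps certain signal sequences to enter, were higher, on all 6 measured probe sets. Ssr1 read 1441 against 1322 (0.12), with a second probe set at 599 against 506 (0.24). Ssr2 read 834 against 767 (0.12), and Ssr4 read 2032 against 1921 (0.08) with a second probe set at 147 against 133 (0.13). Ssr3 was near level, at 2206 against 2174 (0.02), and its sign turned under 3 of the 4 scalings named above. The median of the 4 was 0.10, or 1.07-fold. Ssr2 and Ssr3 were each read only from a probe set with a name ending in _a_at.

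Signal peptidase subunits were mixed. Spcs1 was lower on both probe sets, at 1872 against 2016 (-0.11) and 1563 against 1602 (-0.04). Spcs2 read 1068 against 1169 (-0.14) on the brighter probe set and 766 against 675 (0.18) on the other. Spcs3 read 982 against 919 (0.09). These accessory subunits were thus split, with 1 higher and 2 lower on the brightest probe sets.

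The COPII coat had 10 measured genes of 11, with 5 above 0 and 5 below. Its median log2 ratio of -0.03 was the lowest of the 5 groups. At least 1.1-fold lower were 3 of its 10 measured genes, near the share of 27.7% over all measured genes. The lower genes were Sec16a, Sec23a and the 3 measured Sec24 genes, and the higher ones were Sar1a, Sar1b, Sec13, Sec31a and Sec23b. Sec16a, the scaffold of ER exit sites, read 347 against 404 (1.17-fold lower, -0.22), and its second probe set 347 against 379.8 (-0.13). Both probe sets of Sec16a therefore lay below 0.

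Sec24 subunits, which pick cargo, were lower on the brightest probe set of all 3 measured forms. Sec24b read 243 against 283 (1.17-fold lower, -0.22), but its second probe set was level at 208 against 205 (0.01). Sec24c read 521 against 559 (-0.11) and Sec24d, with TGACGTG in its promoter window, 669 against 711 (-0.09), each on its only probe set. The Sec23 forms, which bind Sec24 and switch off Sar1, were split. Sec23a, also with TGACGTG, read 605 against 678 (-0.17), while Sec23b read 558 against 538 (0.05).

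The outer cage and the Sar1 GTPases that start coat assembly were slightly higher. Sec31a read 985 against 960.4 (0.03) and Sec13, which also serves the nuclear pore, 1020.4 against 991 (0.04). Sar1a read 1555 against 1502 (0.05) on the brightest probe set and 1455 against 1244 (0.22) on the other. Sar1b read 1227 against 1159 (0.08). These 4 genes of the cage and of Sar1 were thus above 0, none by as much as 1.1-fold on the brightest probe set.

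The COPI coat and Arf group had 10 measured genes of 10, evenly split, with 5 above 0, 5 below and a median log2 ratio of -0.01. The 7 coatomer subunits, which assemble as 1 preformed complex, lay between -0.15 and 0.12. Copb2, the beta-prime subunit with TGACGTG in its promoter window, was the highest at 1175 against 1076 (0.12), and its second probe set lay on the other side at 797 against 826 (-0.05). Copz1, the small zeta subunit, was the lowest at 712 against 786 (1.11-fold lower, -0.15). The other 5 subunits lay within 0.06 of 0.

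Copa, the alpha subunit, read 1889.8 against 1929 (-0.03), and Copb1, the beta subunit and another TGACGTG gene, 753 against 749 (0.0024). Cope, the epsilon subunit, which has the full element in its promoter window, read 1059 against 1046 (0.01). Arcn1, the delta subunit, read 992 against 960.5 (0.04) and 549 against 554 (-0.02). Copg1, the gamma subunit, read 1159 against 1202 (-0.06) and 295 against 287 (0.04). Each of Arcn1 and Copg1 thus had probe sets on both sides of 0, none of them far from it.

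Arf1, the GTPase that recruits coatomer, was the highest of its group. It read 3274 against 2930 on the brightest probe set (1.11-fold, 0.16) and 2484 against 2074 on the other (1.19-fold, 0.26). Both lay above 0, and both have names ending in _a_at. A further probe set was under the floor at 1.1 against 1.7. Arf4, which acts together with other Arfs at the Golgi, gave no single direction: its probe sets read 1729.5 against 1789 (-0.05), 1423 against 1312 (0.11) and 261 against 319 (1.23-fold lower, -0.30). Arf5 was near level at 384 against 391 (-0.03).

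The cargo receptors, with the SNARE gene Gosr2, had 7 measured genes of 8, with 5 above 0, 2 below and a median log2 ratio of 0.02. Their ratios had the widest spread of the 5 groups, an SD over genes of 0.15. KDEL receptors return ER chaperones that end in the KDEL signal, and the 3 forms did not share a direction. Kdelr2 was the highest of all members at 1375 against 1165 (1.18-fold, 0.24), but its other probe set read 481 against 537 (-0.16). Kdelr1 read 1131 against 1285 (1.14-fold lower, -0.19) and Kdelr3, which has TGACGTG in its promoter window, 241 against 259 (-0.10), each on its only probe set.

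The lectin receptors showed the same mixture between probe sets. Lman1, which carries glycoproteins out of the ER, read 770.4 against 669 (1.15-fold, 0.20) and 595 against 512 (0.21), but 645 against 714 (-0.15) on a probe set whose name marks it as able to match several transcripts. Lman2, a related lectin, read 468 against 440.4 (0.08) and 221 against 239.5 (-0.12). Tmed10, of the p24 family of vesicle cargo adaptors, was near level at 834 against 823 (0.01). Gosr2, a SNARE of ER to Golgi transport with the full element in its promoter window, read 714 against 701 (0.02) and 301 against 275 (0.13).

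Set side by side, the role groups had medians near 0, and which group was highest or lowest changed with the probe sets read. The medians of log2 ratios were 0.06 for the translocon group, 0.05 for SRP, 0.02 for cargo receptors, -0.01 for COPI and -0.03 for COPII. Every group held genes on both sides of 0, and the differences between groups could not be tested. Read from the second brightest probe set of the genes that have one, the medians were 0.09 for the translocon group (7 genes), 0.04 for COPI (5 genes), 0.01 for COPII (3 genes), -0.08 for SRP (3 genes) and -0.13 for cargo receptors (4 genes). Without probe sets whose names end in _x_at, _s_at or _a_at, the medians were 0.10 for cargo receptors (6 genes), 0.02 for SRP (3 genes), -0.03 for COPI (7 genes), -0.04 for the translocon group (9 genes) and -0.09 for COPII (9 genes). COPII was thus the lowest group in this setting and in the main one, but not on the second brightest probe sets. With hybridisation control scaling all 5 medians were positive, from 0.22 to 0.31. Under quantile normalization and lowess the COPI median turned to 0.02 and 0.0080, and under array medians the cargo receptor median turned to -0.0043.

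**Figure D4:**
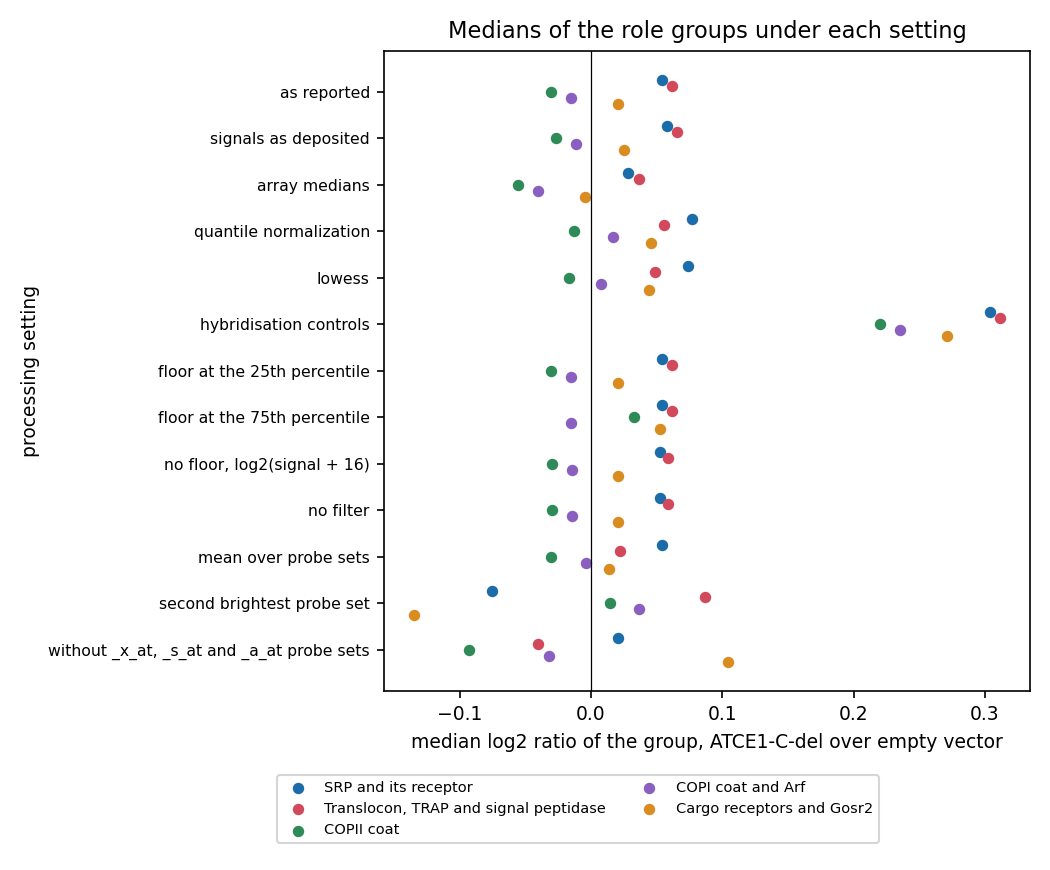
Median log2 ratio of each role group (horizontal axis, coloured points) under each processing setting (rows). Most points lie between -0.1 and 0.1, hybridisation control scaling moves all groups to 0.22 or above, and the choice of probe set changes the order of the groups.

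The members with TGACGTG in their promoter windows did not stand on one side. Their ratios were 0.16 (Arf1), 0.12 (Copb2), 0.09 (Srpr), 0.0024 (Copb1), -0.09 (Sec24d), -0.10 (Kdelr3) and -0.17 (Sec23a), with 4 higher, 3 lower and a median of 0.0024. The 29 measured members whose windows lack these letters had 15 higher, 14 lower and a median of 0.01. The other 8 measured members have no window in the table used, and all 8 were higher, from 0.02 to 0.24 with a median of 0.10. Of all measured genes, 48.0% lay above 0. Over the whole array, the 212 measured genes with these letters had a median of 0.0089, with 114 higher and 98 lower. The 5415 without had a median of -0.01, with 2588 higher and 2827 lower.

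Other genes of the same steps were read from 4 lists of related genes, with 80 of 103 measured. Of these, 40 were higher and 40 lower, with a median of -0.0035. Of all measured genes, 48.0% were higher, the share to set beside the counts of each list below. At 1.2-fold, 5 of 80 were higher and 4 of 80 lower, beside the background shares of 9.21% and 12.7%. No gene of these lists reached 1.5-fold, which was rare on the arrays: of 6807 measured genes, 62 were higher and 76 lower by that much.

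Among genes of glycosylation and membrane insertion, 12 of 21 were higher, with a median of 0.04. Get4, part of the complex that delivers tail-anchored proteins, was the only one past 1.2-fold, at 468 against 347 (1.35-fold), and its second probe set had a ratio of 0.22. Rpn1, a subunit of the oligosaccharyltransferase, was higher on all 5 of its measured probe sets, the brightest at 0.17. The names of all 5 mark them as able to match several transcripts. Dad1 of the same enzyme was at 0.16, with its other probe set at -0.25. On the lower side were Krtcap2, also of this enzyme (-0.24, with a second probe set at 0.15), Sil1, the exchange factor of the ER chaperone BiP (-0.18), and Sec11c, a catalytic subunit of signal peptidase (-0.15).

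Regulators and tethers of COPII transport had 13 of 21 higher, with a median of 0.0094. Gorasp2, a Golgi stacking protein, was the lowest at 1081 against 1470.0 (1.36-fold lower, -0.45), but its other probe set lay at 0.09. Ykt6 and Scfd1, a SNARE and a SNARE regulator, were at -0.23 and -0.21, the second probe set of Ykt6 lying at 0.13. The tethering subunit gene Trappc5 (0.30, second probe set -0.15), the exit site gene Ctage5 (0.26) and Preb, the exchange factor that activates Sar1 (0.21, second probe set -0.07), were the highest.

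COPI regulators and tethers had the lowest median of the 4 lists, at -0.07, with 7 of 20 higher and 13 lower. Copz2, the alternative zeta subunit of coatomer, was 1.37-fold lower at 281 against 384 (-0.46) on its only measured probe set. It lay on the same side as the member Copz1, at -0.15. Cog6 of the Golgi tethering complex was at -0.37 and the SNARE gene Use1 at -0.29, with its second probe set at -0.31. On the higher side were Cog1 (0.30, its other probe sets at -0.34, 0.20 and 0.13), Arf2 (0.28, second probe set at least 0.06) and Cog4 (0.16, second probe set -0.36).

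Other cargo receptors had 8 of 18 higher, with a median of -0.03. Ergic1, which cycles between the ER and the Golgi, was 1.26-fold higher at 744 against 589 (0.33), with its other probe sets at 0.13 and 0.04. Surf4, a receptor for soluble cargo, was higher on all 5 of its measured probe sets, the brightest at 0.23. Rer1, which retrieves membrane proteins to the ER, was higher on both, at 0.22 and 0.28. Every measured probe set of Surf4 and Rer1 has a name that marks it as able to match several transcripts. The lowest were Yipf4 (-0.22, second probe set -0.10), the p24 gene Tmed3 (-0.13) and Ergic3 (-0.11, its other probe sets at 0.07 and -0.07).

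**Figure D5:**
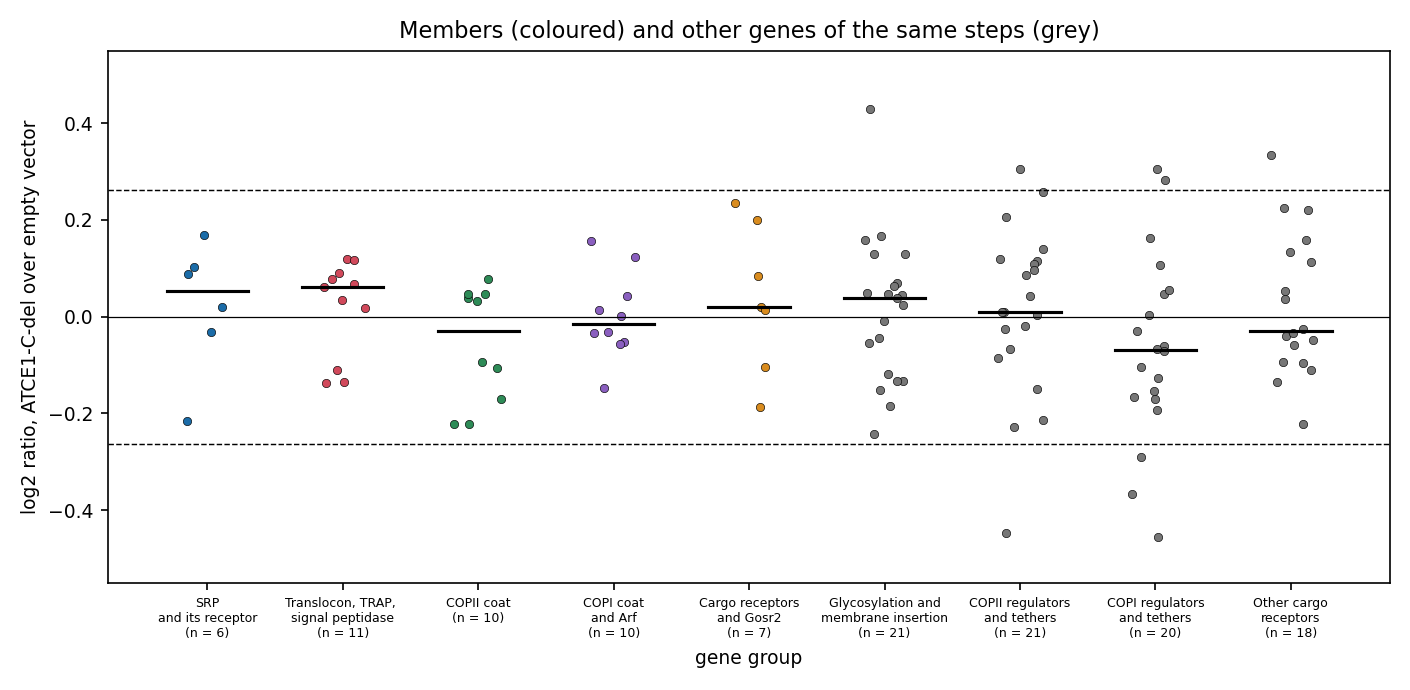
Log2 ratios (ATCE1-C-del over empty vector, vertical axis) for the measured members by role (coloured) and for 80 other genes of the same steps in 4 lists (grey), 1 point per gene. Horizontal bars are medians and dashed lines 1.2-fold; 9 grey points and no coloured point lie outside them.

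Marker genes were read to check the labelled cell type. All 12 fibroblast markers checked were measured, with summed signals of 41575 against 40830.4. Of the markers on the arrays, 0 of 6 epithelial, 0 of 5 endothelial, 0 of 5 muscle and 0 of 6 spermatid genes were measured. Among 6 macrophage markers only Cd68 reached the floor, on 1 array, at 81.5 against 50.8, and the summed signals of the 6 were 200.4 and 148. Creb3l4 read 18.0 against 20.7, under the floor on both arrays. Where its probe set lies relative to the inserted fragment was not analysed here, so neither the labels nor the expression of the insert are checked by it.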

How the data were processed

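RNA from 2 NIH 3T3 cultures was hybridised to 1 Affymetrix array each. The submitters' processing notes name MAS5, and the deposited intensity values run from 0 upwards on a linear scale. Its version and target value were not given in the sources used here, and detection calls were not used. Each array held 22690 probe sets, 64 of them controls that were left out. Each array was divided by its mean after trimming 2% at each end and brought to a common mean, which changed signals by at most 0.14%. Printed signals are the deposited ones unless said otherwise. Signals under the array median were set to it, log2 ratios of ATCE1-C-del over empty vector were taken, and each gene was represented by the probe set brightest in mean log2 signal. A gene was measured if it reached the floor on at least 1 array.

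With 1 array per group, genes were counted at 1.2-fold and 1.1-fold, without a test. The number of arrays limits the precision, and the spread between probe sets leaves out variation between cultures. The role groups, lists and motifs were chosen with earlier results of these data known. By rule, every member was accounted for and up to 3 genes per direction were named from each list of other pathway genes. Gene symbols came from the platform annotation: 20393 probe sets had exactly 1, 691 had several and 1606 had none. Promoter sequences are from RefSeq (GRCm38.p6), matched by symbol. The procedure was run on simulated data with 1.5-fold changes in bright probe sets and less noise than the spread between probe sets here. That run does not tell how it performs on changes as small as those of the members. Alternatives covered scaling, floor, filter, fold and choice of probe set. Analyses were run in Python 3.11.15 with pandas 2.3.3 and numpy 2.4.6, lowess in statsmodels 0.14.6 and figures in matplotlib 3.10.9.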

Additional observations from a re-analysis of the deposited data

How the results depend on the processing

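No paired analysis was possible because each group has 1 array, and for the same reason no replicate could be left out. No member passed 1.2-fold under 11 of the 12 other settings of scaling, floor, filter and probe set. With the main settings none reached 1.5-fold, where 62 of 6807 measured genes were higher and 76 lower. The hybridisation controls had a median log2 ratio of -0.25 over 18 probe sets. Scaled to them, 26 members passed 1.2-fold upwards and 36 passed 1.1-fold upwards, 0 passed 1.1-fold downwards, and 44 lay above 0 and 0 below. The shares of all measured genes past these folds were not counted under this scaling, so these counts are not a result about the members. The medians then were 0.27 for all members, 0.30 for SRP, 0.31 for the translocon group, 0.22 for COPII, 0.24 for COPI and 0.27 for cargo receptors, while that of all measured genes was 0.24. At 1.1-fold in place of 1.2-fold, 4 members were higher and 6 lower. Read from the second brightest probe set, 11 of 22 members lay above 0 and 11 below, and 11 had the opposite sign to their brightest. Without probe sets that can match several transcripts, 17 of 34 lay above 0 and 2 were at least 1.1-fold higher. With the floor at the 75th percentile Sec24b and Kdelr3 dropped out, and the COPII median was 0.03 over 9 genes. The cause was not tested.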
